A study of Mus musculus with 29 samples.

Results

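The nuclear genes of the mitochondrial respiratory chain were followed in cultured mouse keratinocytes with and without induction of a c-Fos transgene. The genes were taken by name from the annotation of the array: every symbol that starts with Nduf, Uqcr, Cox4 to Cox8 or Atp5, together with the Sdh subunits, Cyc1 and Cycs. These names covered 87 genes on 110 array features, a feature being 1 bead type with its own probe sequence, and 76 genes on 92 features were detected (detection p below 0.01) on 2 or more of 29 arrays. The 76 genes, out of 8271 genes measured, hold 31 subunits of complex I and 4 of its assembly factors, 3 genes of complex II, 7 of complex III, 14 of complex IV, 15 of complex V, cytochrome c (Cycs) and the pseudogene Ndufs5-ps. The remaining 11 names were Atp5k, Cox4i2, Cox6b2, Cox7b2, Cox8b, Cox8c, Ndufb11, Ndufs1, Uqcrfs1 and Uqcrq, detected on no array, and Ndufaf3, detected on 1.

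The cells were primary keratinocytes from the tail skin of C57BL/6 mice, grown at 32 °C in KC-SFM medium. Every culture carries the c-FostetON transgene, in which doxycycline (Dox) induces c-Fos, so an effect of Dox itself and one of c-Fos cannot be told apart. The Dox groups held 3, 3, 3, 2 and 4 arrays at 6, 12, 24, 48 and 72 h, and the untreated groups 2, 2, 3, 3 and 4. Each treatment has a pair of 72 h arrays with the letter C, which were averaged, and 27 replicates remained. The labels disagree on the dose, which is 1 µg/ml under treatment and 1 µg/L under growth. They do not say that replicates came from separate animals or cultures, so the p-values may reflect technical spread only.

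The respiratory chain passes electrons from NADH through complex I, or from succinate through complex II, to complex III, by cytochrome c to complex IV and on to oxygen. The proton gradient that complexes I, III and IV build drives complex V, the ATP synthase. Most subunits are encoded in the nucleus and imported, and a small core is encoded by mitochondrial DNA. Nuclear respiratory factor NRF1 and the ETS factor GABP, with coactivators such as Ppargc1b and the receptor Esrra, are known to drive many of the nuclear genes. In epidermis, c-Fos is a subunit of the transcription factor AP-1, which acts in keratinocyte growth and differentiation.

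Promoter windows of RefSeq (GRCm38.p6, 250 bases before to 50 after the start of the gene) matched 64 of the 76 genes. On both strands, GCGCATGC (the core NRF1 binds) was in 11 of these windows, 17.2% against 3.9% of all genes in the array annotation. AAGATGGC (YY1) was in 9, 14.1% against 3.41%, and TGACTCA (AP-1) in 6, 9.38% against 4.57%. CCGGAAGT (ETS) was in 5, 7.81% against 5.8%. No matches of different motifs overlapped. A match describes the letters only. The windows below belong to 3 genes whose levels were higher at 72 h than at 6 h in both treatments and to Ndufaf4, which was lower in both, and capitals mark the motif matches: YY1 in Ndufs7, ETS in Ndufs3 (on the opposite strand), NRF1 in Uqcrc1 and Ndufaf4.
Ndufs7, chr10:80249199-80249498, + strand: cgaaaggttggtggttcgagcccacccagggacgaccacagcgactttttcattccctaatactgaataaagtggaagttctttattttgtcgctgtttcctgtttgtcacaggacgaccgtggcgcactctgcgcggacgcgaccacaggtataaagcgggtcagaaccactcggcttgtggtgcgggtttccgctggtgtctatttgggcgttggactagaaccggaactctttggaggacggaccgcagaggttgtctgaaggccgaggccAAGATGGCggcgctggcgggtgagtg
Ndufs3, chr2:90904672-90904971, - strand: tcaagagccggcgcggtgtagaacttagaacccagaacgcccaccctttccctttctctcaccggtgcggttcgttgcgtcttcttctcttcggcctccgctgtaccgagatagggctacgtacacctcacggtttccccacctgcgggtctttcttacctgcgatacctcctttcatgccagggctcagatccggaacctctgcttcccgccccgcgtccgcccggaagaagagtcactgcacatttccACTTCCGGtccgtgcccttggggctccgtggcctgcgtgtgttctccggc
Uqcrc1, chr9:108936398-108936697, + strand: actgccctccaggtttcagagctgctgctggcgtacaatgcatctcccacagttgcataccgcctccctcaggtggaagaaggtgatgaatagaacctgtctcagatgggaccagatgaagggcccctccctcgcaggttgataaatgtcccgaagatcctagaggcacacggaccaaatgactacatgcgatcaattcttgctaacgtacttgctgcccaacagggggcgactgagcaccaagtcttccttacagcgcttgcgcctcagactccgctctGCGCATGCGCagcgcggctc
Ndufaf4, chr4:24897833-24898132, + strand: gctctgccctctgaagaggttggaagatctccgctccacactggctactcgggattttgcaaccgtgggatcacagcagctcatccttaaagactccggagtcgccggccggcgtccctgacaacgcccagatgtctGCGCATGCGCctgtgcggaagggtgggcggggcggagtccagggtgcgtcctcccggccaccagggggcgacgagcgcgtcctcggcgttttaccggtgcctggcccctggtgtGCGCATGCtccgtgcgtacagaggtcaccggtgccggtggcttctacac
Uqcrc1 and Ndufaf4 both hold NRF1 letters. Of the 17 windows of genes higher at 72 h in both treatments 3 hold NRF1 letters, and of the other 47 windows 8 do. The direction of Ndufaf4 over time depended on the scaling. A part of these letters in the changes over time was not tested.

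Levels are log2 intensities after background correction and quantile normalization, and a difference of 1 is a doubling. A call means a Benjamini-Hochberg adjusted p below 0.05 in limma over all 11794 features kept. Arrays had median signals of 54.5 to 74.5 and detected 33.4 to 37.8% of their features. The 2 untreated 6 h arrays stood apart, with a median correlation with the other arrays of 0.952 and 0.953 against 0.968 to 0.984 for the other arrays. The authors' normalized values fall into 4 sets of arrays with a common distribution, of 6, 8, 7 and 8 arrays, and all 72 h arrays form a set of their own. Dox contrasts at 6, 48 and 72 h lie within 1 set, those at 12 and 24 h cross sets, and 72 h cannot be told apart from its set in any contrast over time. The array's Fos feature read lower in Dox cultures, by -0.39, -0.32, -0.76, -0.83 and -0.78 from 6 to 72 h, with adjusted p 0.106, 0.453, 0.00547, 0.00551 and 0.00166, which goes against the labels. Whether the feature reads the transgene's transcript is not stated in the labels, so Dox and untreated stand for the libraries labelled so in every direction given here. Of 13 keratinocyte markers 10 were measured, and of the markers of other cell types on the array 2 of 9 for fibroblasts (Vim and Thy1), 4 of 6 for melanocytes (Tyrp1, Dct, Pmel and Mlana), 2 of 9 for immune cells (Aif1 and H2-Ab1), 1 of 6 for endothelium (Kdr) and 4 of 8 for muscle. Col1a1, Col3a1 and Pdgfra of fibroblasts, Ptprc of immune cells and Pecam1 of endothelium were detected on no array.

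The question of the design was which transcripts differ between Dox and untreated cultures. From 12 to 48 h no respiratory chain gene passed the threshold in either direction, and at 72 h a single one did, the complex I assembly factor Ndufaf1. At 12 h the background was 0.931% of all genes called higher and 0.447% lower, at 24 h 1.43 and 1.46%, at 48 h 1.39 and 1.2%, and at 72 h 2.91 and 3.34%. With 76 genes these shares give few calls, so a count of 0 or 1 lies near the background. At an unadjusted p below 0.05 there were 3, 4, 5 and 12 of the 76 genes at 12, 24, 48 and 72 h, against 12.3, 16.3, 12.9 and 17% of all genes. The median difference over the 76 genes was -0.0087, 0.015, 0.052 and 0.032 at these times, against -0.0099, -0.014, -0.0081 and -0.0070 over all genes. The differences ran from -0.32 to 0.37 at 12 h, from -0.28 to 0.34 at 24 h, from -0.28 to 0.38 at 48 h and from -0.43 to 0.47 at 72 h. The 95% interval of the difference lay within 1.5-fold either way for 73, 72, 69 and 69 genes at 12, 24, 48 and 72 h, and within 2-fold for all 76. Over all genes 80.5, 84.2, 79.8 and 84.1% of intervals lay within 1.5-fold at these times. Under the authors' values 2 genes were called at 12 h and 8 at 24 h, and with median scaling 10 at 24 h. With the authors' values the median over the 76 genes was 0.25 at 12 h and -0.27 at 24 h, against 0.11 and -0.019 over all genes. With median scaling it was -0.28 at 24 h, against -0.24 over all genes. The share of all genes called was not counted under these scalings.

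**Figure D1:**
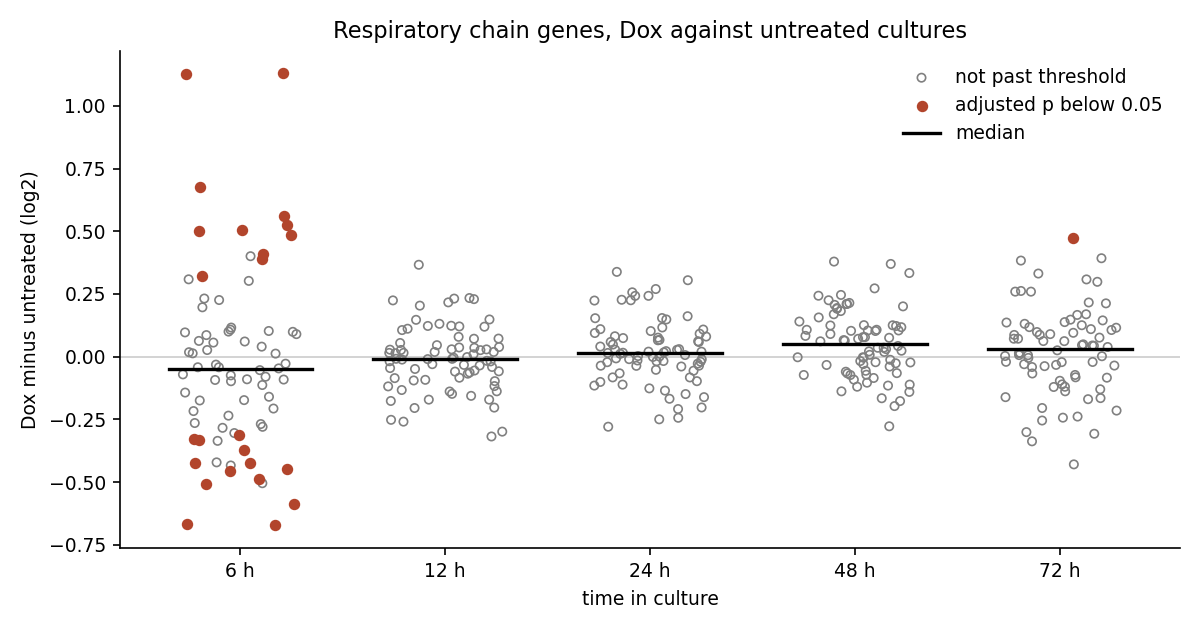
Dox minus untreated (log2, vertical axis) for each of 76 respiratory chain genes at 5 culture times (horizontal axis); filled points passed an adjusted p of 0.05, open points did not, and bars are medians. The spread is wide at 6 h, where 24 genes are called, and 1 gene is called after that.

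Ndufaf1, which helps to build the membrane arm of complex I, read 7.57, 7.94 and 7.66 in Dox cultures at 72 h, against 7.30, 6.98 and 7.47 in untreated cultures. The groups did not overlap, and the difference was 0.47 ± 0.12 (SE), 1.39-fold, adjusted p = 0.018. At 48 h the Dox cultures read 7.72 and 7.55 and the untreated cultures 7.33, 7.16 and 7.29, again without overlap, though that contrast was not called. At 24 h they read 7.35, 7.33 and 7.19 with Dox, against 7.06, 7.23 and 7.29 without it, and here the groups overlapped. The call at 72 h was lost without untreated replicate 2 (difference 0.34, adjusted p = 0.18) and without Dox replicate 2 (0.36, adjusted p = 0.15), and under median scaling (0.42, adjusted p = 0.17) and the authors' values (0.31, adjusted p = 0.075). At 72 h 3 of 10 keratinocyte markers were higher and 1 of 4 muscle markers lower in Dox cultures, and their part in this difference was not tested.

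At 6 h 24 genes differed, 11 higher and 13 lower in Dox cultures, or 14.5 and 17.1% of the 76 against a background of 10.1 and 14.2%. The calls came in both directions within a complex: complex I had 2 higher and 5 lower, complex III 1 and 2, complex IV 2 and 4, and complex V 3 and 0. Both complex II genes detected in both groups were higher. The median over the 76 genes was -0.05, against -0.08 over all genes. The split of calls moved with the scaling, to 2 higher and 24 lower with median scaling and to 3 and 6 with the authors' values. The median over all genes was -0.21 and -0.021 under these scalings. Each of these contrasts uses the untreated 6 h arrays that stand apart. The count was 11 without untreated replicate 2 and 15 without Dox replicate 2, and 3 of the 11 higher genes (Atp5pb, Cox7a2l and Ndufc2) and 4 of the 13 lower genes kept the call whichever replicate was left out, the lower ones being Cox6b1, Ndufs6, Ndufv3 and Uqcr10.

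Cox7a2l, related to the 7a subunit of complex IV, read 8.53, 8.50 and 8.56 in Dox cultures at 6 h, against 7.63 and 7.17 in untreated cultures. The difference was 1.13 ± 0.14, or 2.19-fold, with adjusted p = 1.5e-06. Atp5pb, the b subunit of the peripheral stalk of ATP synthase, read 9.12, 9.19 and 9.14, against 7.91 and 8.13 in untreated cultures, a difference of 1.13 ± 0.12 (adjusted p = 1.05e-07). Both genes sat in a narrow range in Dox cultures, and the untreated values lay below every Dox value. Ndufc2, an accessory subunit of complex I, differed in the same way by 0.68 ± 0.11 (adjusted p = 2.87e-05), a call lost under median scaling (0.32, adjusted p = 0.10). The peripheral stalk gene Atp5o was higher by 0.56 ± 0.13, the assembly factor Ndufaf7 by 0.52 ± 0.14, and the succinate dehydrogenase genes Sdhb and Sdhc by 0.50 ± 0.17 and 0.49 ± 0.13. The calls of Atp5o, Ndufaf7, Sdhb and Sdhc were lost without untreated replicate 2 (adjusted p = 0.081, 0.14, 0.46 and 0.11), and that of Sdhb also without Dox replicate 2 (0.13) or 3 (0.066).

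In the other direction, Cox6b1, the subunit of complex IV that faces the intermembrane space, read 12.01, 12.05 and 12.03 in Dox cultures, against 12.78 and 12.62 in untreated cultures. Its difference was -0.67 ± 0.12 (adjusted p = 9.46e-05). A second Cox6b1 feature, detected on all 29 arrays, went the other way by 0.41 ± 0.13 (adjusted p = 0.028), so the direction for this gene is uncertain. Cox8a, a small complex IV subunit, was lower by -0.67 ± 0.16, Cox6c by -0.59 ± 0.15, and the complex I accessory subunits Ndufv3 and Ndufs6 by -0.49 ± 0.11 and -0.46 ± 0.10. Without untreated replicate 1 the call of Cox8a was lost (adjusted p = 0.074), and without untreated replicate 2 that of Cox6c (0.14). Cox6a2, the heart and muscle isoform of subunit 6a, was detected on 3 arrays only, its difference of -0.51 came with overlapping groups, and the call was lost without untreated replicate 1 (adjusted p = 0.24), Dox replicate 2 (0.073) or Dox replicate 3 (0.12). Sdhd was not detected in Dox cultures at 6 h, and no fold is given. Genes with several features also disagreed for Atp5j, a coupling factor of complex V, whose features gave 0.06 and 1.26, and for Ndufa8, whose features gave 0.09 and 0.51. The brightest Ndufs4 feature gave 0.41 and the others -0.35, -0.23 and 0.19, and those of Ndufa5 gave -0.05 and -0.50. For Ndufv3 the other features gave 0.18 and -0.24, and with features averaged its call was lost (-0.18, adjusted p = 0.21). At 6 h 10 of 16 such further features had the sign of the brightest one.

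**Figure D2:**
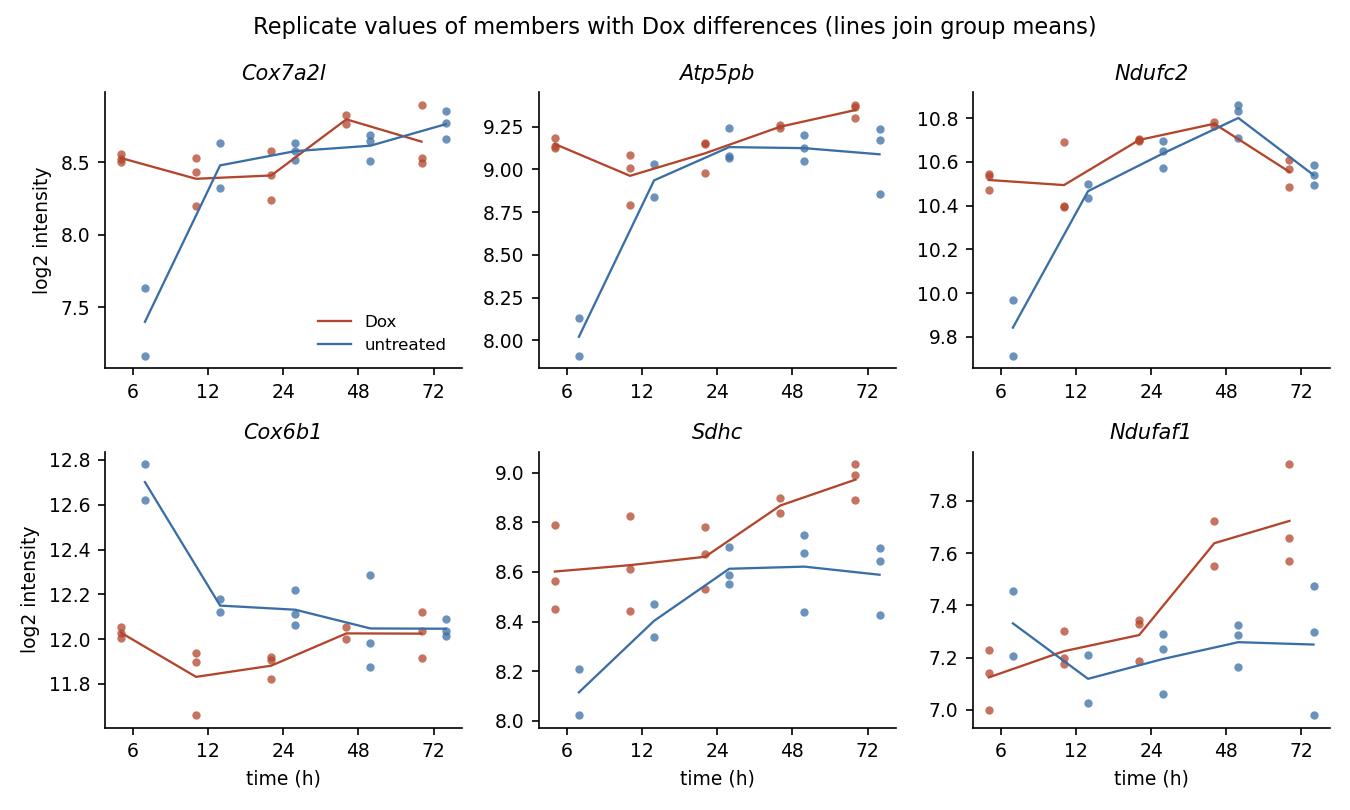
Log2 intensity (vertical axis) of each replicate at 5 culture times (horizontal axis) for 6 genes, Dox left of untreated, lines joining group means. For Cox7a2l, Atp5pb, Ndufc2 and Cox6b1 the untreated 6 h values lie apart from all other groups, while Ndufaf1 separates at 48 and 72 h.

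Averaged over the 5 times, 5 genes were higher and 4 lower in Dox cultures, against a background of 8.6 and 11.1% of all genes, which is below it in both directions. The split of calls moved with the scaling, to 0 higher and 8 lower with median scaling and to 2 and 1 with the authors' values. The median over all genes was -0.075 and 0.015 under these scalings. In the same mean 4 of 10 keratinocyte markers were higher, and 1 of 2 fibroblast and 1 of 4 muscle markers lower; their part in these differences was not tested. Higher were Atp5pb (0.30 ± 0.05, adjusted p = 0.000123), the complex II anchor Sdhc (0.28 ± 0.06, adjusted p = 0.000724), Cox7a2l (0.19 ± 0.06), Ndufaf1 (0.17 ± 0.06) and Ndufc2 (0.15 ± 0.05). Lower were Cox6b1 (-0.26 ± 0.05), the complex I core subunit Ndufs7 (-0.18 ± 0.05), Ndufs6 (-0.15 ± 0.04) and the assembly factor Ndufaf4 (-0.14 ± 0.05). The second Cox6b1 feature was at 0.018 (adjusted p = 0.88), and with features averaged the call of Cox6b1 was lost (-0.12, adjusted p = 0.069). Further features of Atp5j (0.29, adjusted p = 0.000969), Ndufa8 (0.20, adjusted p = 0.0124) and Sdhb (0.23, adjusted p = 0.0497) passed the threshold. The brightest features of these genes, at 0.024, 0.017 and 0.10, did not. In this mean 8 of 16 further features had the sign of the brightest one. All 76 intervals lay within 1.5-fold, as did 97.6% of the intervals over all genes. Averaged over 12 to 72 h, which leaves out the untreated arrays that stand apart, 2 genes were called, Ndufaf1 (0.26 ± 0.06, adjusted p = 0.00801) and Sdhc (0.23 ± 0.06, adjusted p = 0.0183), and 7 had an unadjusted p below 0.05. Of all genes 5.2% were called higher and 5.72% lower in that mean, and 23.2% had an unadjusted p below 0.05, so these counts lie below the background. In that mean Cox7a2l was at -0.05, against 0.19 with 6 h included. The mean over 12 to 72 h was not recomputed under another scaling, block or left-out replicate. In the mean over the 5 times 4 genes were called with the array set as a block, and 5 without untreated 6 h replicate 2. The calls of Atp5pb, Sdhc, Cox6b1, Ndufs6 and Ndufs7 in the mean over 5 times were kept whichever replicate was left out, and those of Cox7a2l, Ndufaf1, Ndufc2 and Ndufaf4 were not. Under median scaling the calls of Atp5pb (0.18, adjusted p = 0.068), Sdhc (0.15, adjusted p = 0.16) and Ndufaf1 (0.064, adjusted p = 0.59) were lost. Blocking on the array set ended those of Ndufs6 and Ndufs7 (adjusted p = 0.066 and 0.079), as did the authors' values (0.067 and 0.16).

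Sdhc, which anchors succinate dehydrogenase in the membrane, read 8.89, 8.99 and 9.03 in Dox cultures at 72 h, against 8.64, 8.43 and 8.70 in untreated cultures. At 48 h it read 8.90 and 8.84 with Dox, against 8.75, 8.44 and 8.68 without it. The groups did not overlap at either time, though neither contrast was called. At 12 h they overlapped, at 8.83, 8.61 and 8.44 with Dox and 8.34 and 8.47 without. At 24 h they also overlapped, at 8.67, 8.78 and 8.53 with Dox and 8.55, 8.70 and 8.59 without.

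Whether the Dox difference depended on time was asked with an F test over the 5 times, which 9 of the 76 genes passed, against 14.6% of all genes. Without untreated 6 h replicate 2 the count was 4. In Atp5pb the difference was 1.13, 0.03, -0.04, 0.13 and 0.26 at 6, 12, 24, 48 and 72 h (adjusted p = 6.62e-05), and in Cox7a2l 1.13, -0.09, -0.17, 0.18 and -0.12 (adjusted p = 0.000108). In both genes the 6 h value stood apart and later values lay near 0. Cox8a went the opposite way, at -0.67, -0.17, 0.24, 0.12 and 0.22 (adjusted p = 0.0158).

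Time in culture gave a wider set of changes, in which respiratory chain genes leaned upward in both treatments. In Dox cultures 35 of 76 genes were higher and 2 lower at 72 h than at 6 h, or 46.1 and 2.63%, against 18.9 and 18.8% of all genes. In untreated cultures 31 were higher and 7 lower, or 40.8 and 9.21%, against 19.6 and 24.9% of all genes. The median difference over the 76 genes was 0.27 in Dox cultures and 0.21 in untreated cultures, against 0.0032 and -0.053 over all genes. Positive differences were found in 68 genes with Dox and 50 without. Both contrasts set 1 array set against another, so time and array set cannot be told apart in them. With median scaling the median of all genes itself moved to 0.29 in Dox and 0.12 in untreated cultures, and with the authors' values to 0.29 and 0.25. Under each of the 5 scalings run the median of the 76 genes lay above that of all genes, by 0.20 to 0.55 in Dox cultures and 0.17 to 0.50 in untreated cultures, with 63 to 69 of the 76 genes above it in Dox cultures and 53 to 65 in untreated cultures. With median scaling the counts were 66 higher and 0 lower in Dox cultures and 36 and 1 in untreated cultures. With the authors' values they were 74 and 0 in Dox cultures and 71 and 0 in untreated cultures. Leaving out each replicate left 28 to 34 calls in Dox cultures and 26 to 35 in untreated cultures. The untreated 6 h arrays also enter the Dox contrast at 6 h, so Cox7a2l, Atp5pb and Atp5o, with untreated differences over time of 1.36, 1.07 and 1.06, appear in both.

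**Figure D3:**
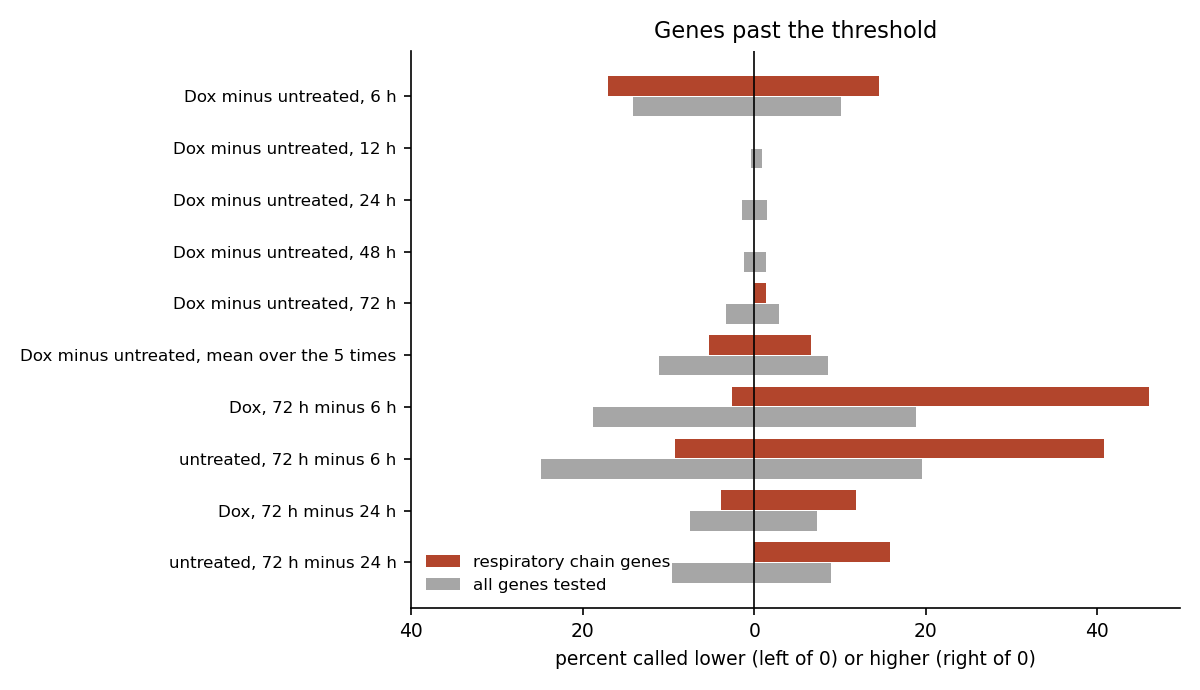
Percent of genes called higher (right of 0) or lower (left of 0) in each of 10 comparisons, for 76 respiratory chain genes and for all 8271 genes tested. Red bars reach 46.1% and 40.8% to the right at 72 h against 6 h, where grey bars reach 18.9% and 19.6%.

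By complex, complex I had 18 of 31 genes higher in Dox cultures and 14 higher and 2 lower in untreated cultures. Complex III had 4 of 7 higher in both treatments, complex IV 6 of 14 higher and 1 lower with Dox and 4 and 3 without, and complex V 4 of 15 higher with Dox and 6 higher and 1 lower without. In all, 21 genes were higher in both treatments, which is 60% of those higher with Dox and 67.7% of those higher without it; over all genes these shares were 56.6 and 54.6%. Among them were 4 core subunits of complex I, Ndufs3, Ndufs7, Ndufs8 and Ndufv1, the core proteins Uqcrc1 and Uqcrc2 of complex III, the complex IV subunits Cox4i1, Cox5b and Cox6a1, the ATP synthase genes Atp5c1 and Atp5h, and Sdhc. Ndufa4 and Ndufaf4 were lower in both, and Atp5g1, Cox6a2, Cox6b1, Ndufa6 and Ndufs6 in untreated cultures. With median scaling the untreated calls of Atp5g1 (-0.20), Ndufa6 (-0.15), Ndufs6 (-0.11), Ndufaf4 (-0.17) and Cox6b1 (-0.40, adjusted p = 0.051) were lost, and with the authors' values these genes were at 0.31, 0.38, 0.34, 0.35 and 0.055, and Cox6a2 at -0.030. The calls of Atp5g1 and Ndufa6 were also lost without untreated 6 h replicate 1 (adjusted p = 0.21 and 0.33). Cox6b1 was lower there by -0.65, while its second feature was higher by 0.56 ± 0.13 (adjusted p = 0.00128). The brightest Atp5j feature was at -0.10 in untreated cultures, while its second feature was higher by 1.15 ± 0.14 (adjusted p = 2.25e-07). The calls of Sdhc were lost without Dox 6 h replicate 2 (adjusted p = 0.086) and without untreated 6 h replicate 2 (0.073). Whichever replicate was left out, 20 genes stayed called higher in Dox cultures and 18 in untreated cultures, 8 of them in both: Cox6a1, Ndufa8, Ndufaf7, Ndufb7, Ndufs4, Ndufs7, Ndufs8 and Ndufv1.

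**Figure D4:**
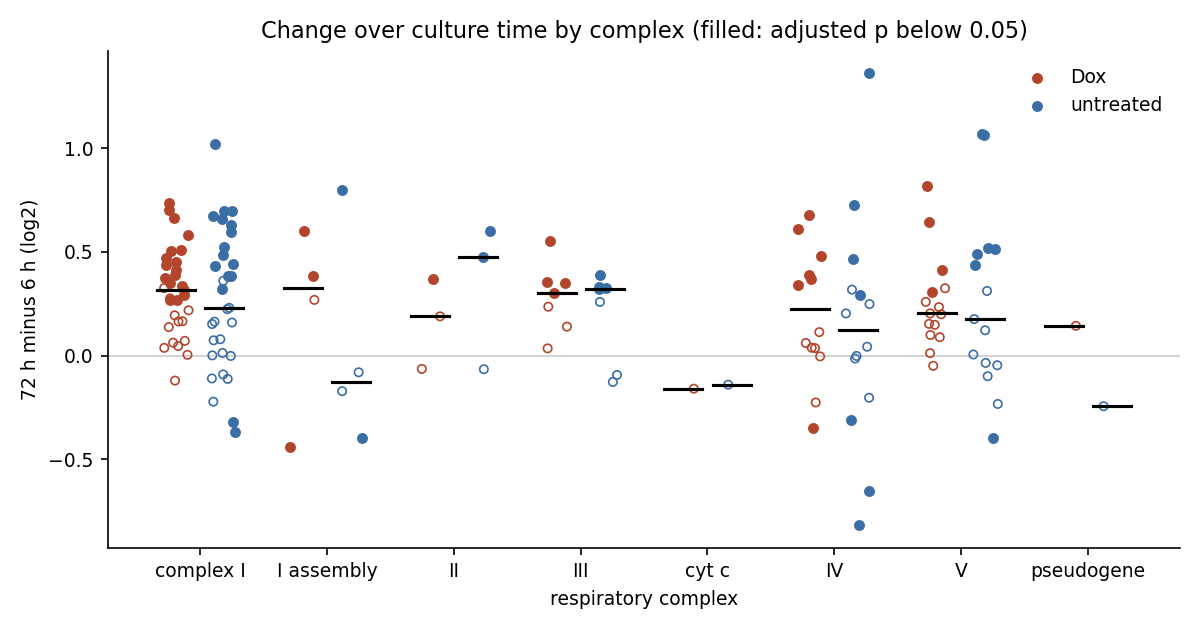
Difference of 72 h minus 6 h (log2, vertical axis) for each respiratory chain gene by complex (horizontal axis), Dox left of untreated; filled points passed an adjusted p of 0.05 and bars are medians. Medians of complexes I, III, IV and V lie above 0 in both treatments.

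Ndufs7, a complex I core subunit that carries an iron-sulfur cluster, read 10.22, 10.12 and 10.14 in Dox cultures at 72 h, against 9.46, 9.40 and 9.42 at 6 h. That is a difference of 0.74 ± 0.11, or 1.67-fold (adjusted p = 9.69e-06). In untreated cultures it read 10.22, 10.40 and 10.51 at 72 h, against 9.71 and 9.70 at 6 h, a difference of 0.67 ± 0.12 (adjusted p = 8.33e-05). The times did not overlap in either treatment, and the group means were 9.42, 9.52, 9.58, 9.98 and 10.16 in Dox cultures from 6 to 72 h. The flavin subunit Ndufv1, where complex I takes up electrons from NADH, was higher by 0.47 ± 0.10 in Dox cultures (10.54, 10.25 and 10.51 at 72 h, against 9.95, 10.06 and 9.88 at 6 h). In untreated cultures it was higher by 1.02 ± 0.12 (10.74, 10.73 and 10.55, against 9.55 and 9.75; adjusted p = 7.16e-08). Ndufv2, its partner in the NADH-oxidising module, was higher by 0.67 ± 0.11 in Dox cultures and Ndufa13 by 0.70 ± 0.13.

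In complex III the core protein Uqcrc1 read 10.25, 10.36 and 10.07 in Dox cultures at 72 h, against 9.88, 9.99 and 9.75 at 6 h, a difference of 0.35 ± 0.10 (adjusted p = 0.00744). In untreated cultures its difference was 0.32 ± 0.11 (adjusted p = 0.0226). In complex IV, Cox4i1, the common isoform of subunit 4, read 10.58, 10.78 and 10.87 in Dox cultures at 72 h, against 10.47, 10.43 and 10.16 at 6 h, a difference of 0.39 ± 0.13. In untreated cultures it read 10.76, 10.98 and 10.89, against 10.42 and 10.40, a difference of 0.47 ± 0.15. In both treatments every 72 h value of Cox4i1 lay above every 6 h value, though its calls were lost without, for example, Dox 6 h replicate 3 (adjusted p = 0.13) or untreated 6 h replicate 2 (0.068). Cox5b was higher by 0.48 ± 0.10 with Dox and 0.29 ± 0.12 without, and the untreated call was lost without untreated 6 h replicate 2 (0.13, adjusted p = 0.49). The untreated call of Uqcrc1 was lost without the same replicate (0.25, adjusted p = 0.17) and the Dox call without Dox 72 h replicate 2 (adjusted p = 0.052). In complex V the alpha subunit Atp5a1, of the catalytic head, was higher by 0.82 ± 0.17 in Dox cultures (adjusted p = 0.000477) and the central stalk subunit Atp5d by 0.64 ± 0.16. The brightest complex V feature, Atp5b, stayed between 13.55 and 13.74 in every replicate, at values shared by several arrays.

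Of the smaller subunits, some were called in both treatments and some in 1. Among the accessory subunits of complex I, which surround its core, Ndufa8 was higher by 0.41 ± 0.10 in Dox cultures and 0.43 ± 0.11 in untreated cultures. Ndufb7 was higher by 0.45 ± 0.12 and 0.63 ± 0.13, and Ndufs4 by 0.39 ± 0.12 and 0.66 ± 0.13. A second Ndufa8 feature gave 0.45 and 0.80, and the other 3 Ndufs4 features gave 0.29 to 0.54 in Dox cultures and 0.01 to 0.56 in untreated cultures. In complex III the small subunit Uqcr11 was higher by 0.55 ± 0.11 in Dox cultures and was at 0.26 ± 0.12 in untreated cultures, and cytochrome c1 (Cyc1) was at 0.14 ± 0.08 in Dox cultures and higher by 0.33 ± 0.09 in untreated cultures. In complex IV, Cox6c was higher by 0.61 ± 0.14 in Dox cultures and was at -0.0022 ± 0.15 in untreated cultures, and Cox8a was higher by 0.68 ± 0.14 and was at -0.20 ± 0.16. In complex V, Atp5c1, of the central stalk, was higher by 0.31 ± 0.10 in Dox cultures and 0.49 ± 0.11 in untreated cultures, and Atp5g2, of the c-ring, was at 0.32 ± 0.13 and higher by 0.52 ± 0.15. The Dox call of Atp5c1 was lost without Dox 72 h replicate 3 (0.26, adjusted p = 0.091). Whether a gene's change over time differed between treatments was tested only by the F test above.

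Ndufaf4, an assembly factor of complex I, read 8.69, 8.53 and 8.63 in Dox cultures at 72 h, against 9.18, 9.02 and 8.98 at 6 h, a difference of -0.44 ± 0.11 (adjusted p = 0.00171). In untreated cultures it read 9.0, 9.01 and 8.75 at 72 h, against 9.27 and 9.38 at 6 h, a difference of -0.40 ± 0.12. Every 72 h value lay below every 6 h value of its treatment. Ndufa4, named for complex I and found with complex IV, was lower by -0.35 ± 0.09 with Dox and -0.31 ± 0.10 without, the untreated call being lost without untreated 6 h replicate 1 (-0.26, adjusted p = 0.13). These falls depend on the scaling: with median scaling the Dox differences were 0.05 for Ndufaf4 and 0.03 for Ndufa4, and with the authors' values 0.32 and 0.34, beside medians over all genes of 0.29 and 0.29. The untreated call of Ndufaf4 was lost without untreated 6 h replicate 2 (-0.34, adjusted p = 0.076).

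**Figure D5:**
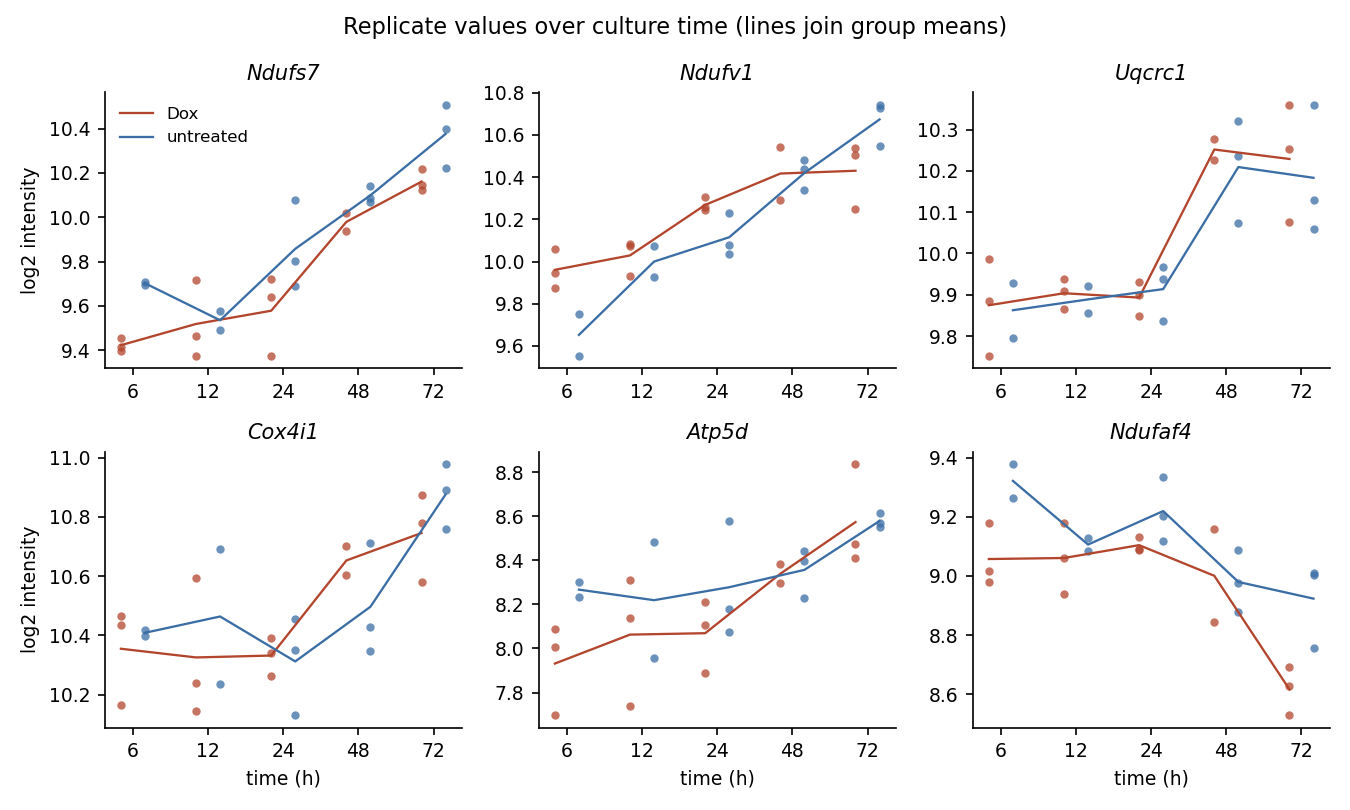
Log2 intensity (vertical axis) of each replicate at 5 culture times (horizontal axis) for 6 genes, Dox left of untreated, lines joining group means. Ndufs7, Ndufv1, Uqcrc1, Cox4i1 and Atp5d read higher at 72 h than at 6 h, and Ndufaf4 reads lower.

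The untreated 6 h arrays weigh on the untreated contrast, so 72 h was also set against 24 h. In Dox cultures 9 genes were higher and 3 lower, against 7.34 and 7.47% of all genes. With median scaling this became 38 higher and 0 lower, and with the authors' values 54 and 0. The median over all genes was then 0.22 and 0.089, and that over the 76 genes 0.40 and 0.46. The share of all genes called was not counted under these scalings. In untreated cultures 12 were higher and none lower at an adjusted p below 0.05 in limma, against 8.97 and 9.65% of all genes. At an unadjusted p below 0.05 in limma there were 21 genes, or 27.6% of the 76, against 30.9% of all genes. The median over the 76 genes was 0.12 in Dox cultures and 0.08 in untreated cultures, against -0.0026 and -0.010 over all genes. Ndufs7, Ndufv2, Cox4i1, Cox5b and Cox8a were higher in both treatments. Ndufs7 was higher by 0.58 ± 0.11 in Dox cultures and 0.52 ± 0.11 in untreated cultures, and Cox4i1 by 0.41 ± 0.13 and 0.56 ± 0.13. Atp5d was higher by 0.50 ± 0.16 in Dox cultures, and Ndufaf4 was lower there by -0.49 ± 0.11, a call lost under median scaling (adjusted p = 0.45) and the authors' values (0.90). The Dox count of 12 fell to between 4 and 8 when any replicate was left out, with 4 without Dox 72 h replicate 2 and 5 without Dox 24 h replicate 3. Ndufs7, higher, and Ndufaf4, lower, kept the Dox call in all of these, and the other 10 genes lost it in at least 1. In untreated cultures Atp5c1, Cox4i1, Ndufb7, Ndufs7 and Ndufv1 kept the call and the other 7 lost it in at least 1.

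Neighbouring times that share an array set could be compared as means with no test. From 12 to 24 h in Dox cultures, with 1 array at 24 h and 3 at 12 h, 62 of 76 genes were positive with a median of 0.14, and 47.9% of all genes were. From 24 to 48 h in Dox cultures, with 2 arrays each, 57 of 76 were positive with a median of 0.13, and 50.5% of all genes were. In untreated cultures 48 of 76 were positive from 12 to 24 h, with a median of 0.06 and 50.6% of all genes positive. From 6 to 12 h untreated, with 1 array at 12 h and 2 at 6 h, the direction was the other way: 28 of 76 were positive with a median of -0.11, and 42.9% of all genes were.

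Of the 76 genes, 9 were detected on at most 16 of 29 arrays: Cox6a2, Cox7a1, Cox7b, Cycs, Ndufab1, Ndufb2, Ndufb4, Ndufb10 and Sdhd. Their levels lie near the background, and calls against a group in which they were detected on no array are bounds. Cycs, which carries electrons between complexes III and IV, was at least 1.31-fold lower at 72 h than at 24 h in Dox cultures. That call (-0.58 ± 0.20, adjusted p = 0.0492) was lost when any Dox 72 h replicate was left out, and without Dox 24 h replicate 2 (-0.37) or 3 (-0.55). Cox6a2 was detected on 3 arrays only, none of them untreated at 72 h, so the detection filter favoured a lower value there. In untreated cultures it was at least 1.33-fold lower at 72 h than at 6 h. That call was lost under the authors' values (-0.030, adjusted p = 0.57). Ndufb10 was at least 1.05-fold higher at 72 h than at 6 h in Dox cultures. It was not among the 20 genes that stayed called higher there whichever replicate was left out.

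Neighbouring pathways gave counts of their own, to be read against the 18.9% of all genes higher and 18.8% lower at 72 h than at 6 h with Dox and the 19.6 and 24.9% without it. The citric acid cycle enzymes, which feed complexes I and II, had 6 of 13 measured genes higher and 0 lower at 72 h than at 6 h in Dox cultures, and 4 higher and 2 lower in untreated cultures. Assembly factors outside the name rule had 11 of 30 higher and 1 lower with Dox, and 7 and 2 without. Mitochondrial ribosomal proteins, which translate the subunits of mitochondrial DNA, had 20 of 68 higher and 4 lower with Dox, and 25 and 7 without. Protein import had 4 of 21 higher and 3 lower with Dox, and 4 and 2 without. The ADP, phosphate and voltage-dependent carriers had 4 of 5 higher with Dox and 3 of 5 without, and pyruvate dehydrogenase and its regulators 3 of 8 higher and 1 lower with Dox and 2 and 2 without. From 12 to 72 h the Dox contrasts held no call in any of these lists, apart from 3 of 68 mitochondrial ribosomal proteins lower at 72 h. The counts of these lists were not recomputed under the alternatives. No subunit encoded by mitochondrial DNA was measured.

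Of the regulators of mitochondrial biogenesis, 2 of 13 were higher and 1 lower at 72 h than at 6 h in Dox cultures, and 3 and 3 in untreated cultures, counts near the 18.9 and 18.8% of all genes with Dox and the 19.6 and 24.9% without it. Esrra, a receptor that binds the promoters of many respiratory genes, was higher by 0.71 ± 0.12 in Dox cultures (adjusted p = 2.94e-05) and 0.64 ± 0.13 in untreated cultures. Nrf1 was lower by -0.50 ± 0.11 in Dox cultures (adjusted p = 0.00077) and -0.69 ± 0.12 in untreated cultures. Gabpa, the DNA-binding subunit of GABP, was at -0.32 ± 0.15 and -0.32 ± 0.17, and neither passed the threshold. Ppargc1b, a coactivator, was at -0.03 ± 0.16 in Dox cultures and lower by -0.50 ± 0.18 in untreated cultures (adjusted p = 0.0288). Tfam, which packages and transcribes mitochondrial DNA, was called in untreated cultures (0.54 ± 0.21, adjusted p = 0.0358) and was at 0.13 ± 0.18 in Dox cultures. At 6 h 1 of the 13 regulators was higher and 2 were lower in Dox cultures, against 10.1 and 14.2% of all genes. These counts lie near the background, and the contrast uses the untreated 6 h arrays that stand apart. The genes were Twnk, the mitochondrial helicase (0.53 ± 0.16), Tfb2m (-0.53 ± 0.17) and Mterf4 (-0.38 ± 0.12). The regulators' differences, at 6 h and over time, were not recomputed under the alternatives. For 72 h minus 6 h the median of all genes was 0.29 in Dox and 0.12 in untreated cultures with median scaling. With the authors' values it was 0.29 and 0.25. No regulator was called between Dox and untreated cultures from 12 to 72 h. At 72 h Nrf1 differed by -0.10 ± 0.11 and Esrra by -0.03 ± 0.12.

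Markers of other cell types moved with time in part. The summed signal of the 2 fibroblast markers detected ran from 49.7 to 53.8 in Dox cultures at 72 h, against 50.5 to 53.2 at 6 h, and from 43.7 to 51.2 in untreated cultures at 72 h, against 61.0 and 74.7 at 6 h. Taken singly, 1 of the 2 was called higher at 72 h with Dox, against 18.9% of all genes. Without Dox 1 was called lower, against 24.9%. At 6 h the Dox cultures lay below the untreated cultures in this sum, without overlap. The summed signal of the 4 muscle markers detected ran from 101 to 117 in Dox cultures at 72 h, against 146 to 155 at 6 h, and from 139 to 157 in untreated cultures at 72 h, against 169.9 and 170.4 at 6 h, while Myh1, Myh4, Ckm and Tnnt3 were detected on no array. The summed signal of keratinocyte markers ran from 52763 to 53091 in Dox cultures at 72 h, against 48583 to 51594 at 6 h, and from 46100 to 49849 in untreated cultures at 72 h, against 45417 to 47849 at 6 h. The part of these markers in the changes over time was not tested. In these cultures, fewer cells of a type, less RNA per cell and, for the other cell types, background signal cannot be told apart.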

How the data were processed

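RNA was measured on 29 Illumina bead arrays of 25697 features. The first table carries intensity values, which the authors deposited without normalization according to its header, and beside each a detection p-value that the authors deposited too. The second carries the authors' deposited log2 values after a normalization that the labels do not name. From the intensities, background correction and quantile normalization were done here by neqc (offset 16; limma 3.58.1, R 4.3.3). A feature was kept when 2 or more arrays detected it (p below 0.01), which left 11794 of 25697, of which 11090 carry a symbol. A gene with several features was counted by the brightest, which gave 8271 genes.

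A single limma fit held 10 group means over 27 replicates (17 residual degrees of freedom, prior 8.19, prior SD 0.159), with Benjamini-Hochberg adjusted p-values over all kept features and a threshold of 0.05. Comparisons were Dox minus untreated, per time and over the 5 times, an F test over times, and 72 h minus 6 h or 24 h within each treatment. Median residual SD was 0.134 for the respiratory chain genes and 0.160 for all genes. Named genes are those past the threshold, up to 6 each way in a comparison, the brightest and the most significant of each complex, genes with features of opposite sign, genes near background, and 6 regulators. The genes, lists, rule and alternatives were chosen with earlier results of these data known. Steps within an array set, and the 4 promoter windows shown, were chosen after seeing the data. Samples of 1 replicate number or letter did not deviate together: correlations ran from -0.05 to 0.15 and 1 of 12 was above 0.1. Alternatives covered normalization, the detection filter, features of a gene, the letter C arrays, array weights, blocks and left-out replicates. The fit was tested on simulated data. The number of arrays limits the precision.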

Additional observations from a re-analysis of the deposited data

Results flagged for a closer look

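For 9 of the 76 genes the Dox difference varied over the 5 times in limma's F test, and these deserve a closer look. The adjusted p of that test was 6.62e-05 for Atp5pb, 0.000108 for Cox7a2l, 0.00454 for Ndufc2 and 0.00934 for Atp5o. It was 0.0142 for Ndufv3, 0.0158 for Cox8a, 0.0211 for Cox6b1, 0.0344 for Ndufaf7 and 0.0447 for Cox6a1. The background was 14.6% of all genes. All of these genes were called at 6 h, where the untreated arrays stand apart from the rest, and none was called at a later time. Without untreated 6 h replicate 2 the count was 4. No group holds 4 or more replicates, so no single sample was tested against its group.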

How the results depend on the processing

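Counts of respiratory chain genes called from 12 to 48 h stayed at 0 under every alternative but the authors' values (2 at 12 h, 8 at 24 h) and median scaling (10 at 24 h). At 6 h the authors' values gave 9, against 24. At 72 h the count of 1 became 3 with array weights, 2 with cyclic loess, 2 with detection on 15 or more arrays, 3 with eBayes trend and robust, 2 with the first letter C array, 3 with letter C arrays as separate replicates, 2 with features averaged, 4 without background correction, and 0 with median scaling and with the authors' values. The mean over times gave 4 with the array set as a block, 2 without 6 h and 3 with the authors' values, against 9, and with median scaling 0 higher and 8 lower. The F test gave 17 with eBayes trend and robust and 16 without background correction, against 9. For 72 h minus 24 h, Dox cultures gave 38 with median scaling and 54 with the authors' values, all higher, against 9 higher and 3 lower, and untreated cultures 19 with array weights, against 12. For 72 h minus 6 h, Dox cultures gave 66 with median scaling and 74 with the authors' values, against 37, and untreated cultures 71 with the authors' values, against 38. The cause was not tested, and the share of all genes called was not counted under the other scalings. Leaving out each replicate gave 11 to 23 calls at 6 h, 0 to 2 at 72 h, 5 to 12 for the mean, 4 to 10 for the F test, 4 to 8 for Dox and 8 to 10 for untreated 72 h minus 24 h, and 28 to 34 for Dox and 26 to 35 for untreated 72 h minus 6 h.

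Of 1276 recomputed differences of named genes, 1113 kept their direction and side of the threshold, 153 lost the call and 10 changed sign. Without 6 h the mean of Cox7a2l was -0.050. With median scaling 72 h minus 6 h in Dox cultures was 0.052 for Ndufaf4 and 0.027 for Ndufa4. With the authors' values it was 0.32 for Ndufaf4 and 0.34 for Ndufa4 in Dox cultures, and in untreated cultures 0.055 for Cox6b1, 0.31 for Atp5g1, 0.35 for Ndufaf4, 0.34 for Ndufs6 and 0.38 for Ndufa6. The replicate block by number gave 22 calls at 6 h, 7 for the mean and 8 for the F test, and by letter 21, 7 and 8; neither moved a count by over 1.5 times. With the array set as a block no contrast over time could be fitted for 72 h. Groups of 2 or 3 replicates limit every value, and signal near background limits 9 genes.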
